A study of Mus musculus with 24 samples.

Results

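A set of 9 endothelial genes, out of 55418 genes in the count table, was followed across lumbar spinal cord of mice given the cancer drug paclitaxel or vehicle. They are Cldn5, Ocln, Slc2a1 and Mfsd2a, called the 4 barrier genes here, and Pecam1, Cdh5, Kdr, Flt1 and Tek, called the 5 general endothelial genes. All 9 passed the filter on low counts. The members were picked by name with earlier results of these data known, among them the response of Cldn5 and Kdr to paclitaxel in knockout cords. The paclitaxel responses in each genotype, and the differences between genotypes that rest on them, are therefore given as descriptions with their errors. Counts of calls are printed beside them with the share of all genes, and are not read as tests of the members. The samples were 24 libraries of RNA from the lumbar segments L4 to L6, 1 per mouse and 3 in each of 8 groups that crossed genotype, treatment and sex. Mice were 8 to 10 weeks old at the start and of the C57BL/6J strain per the labels, and were either wild-type or carried a myeloid-specific conditional knockout of Chrna7, the alpha7 nicotinic acetylcholine receptor subunit. The labels name no Cre driver for it, and what they say of strain is not split by genotype. Paclitaxel was given at 1 mg/kg in 4 injections on alternate days, dissolved in Kolliphor, ethanol and water, control mice received vehicle, and cord RNA was extracted 7 days after dosing began.

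The blood-brain barrier is a property of the endothelial cells of brain and spinal cord vessels. Tight junctions seal neighbouring cells to each other, few vesicles cross the cell, and dedicated transporters carry nutrients in and drugs out. Wnt signals from neural cells and contact with pericytes and astrocyte endfeet maintain it. All endothelial cells, in the cord or elsewhere, also carry adhesion molecules at their contacts and the receptors for vascular endothelial growth factor (VEGF) and for angiopoietins. In whole cord, a lower level of such a gene can mean fewer endothelial cells or less RNA per cell, and these cannot be told apart.

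Libraries held 88812295 to 112158154 counts, and 22024 to 23269 genes reached 10 counts. The third paclitaxel replicate of the wild-type females looked like a sensory ganglion, not cord: Scn10a, a sodium channel of pain-sensing ganglion neurons, lay at 772 CPM (counts scaled to the library total) against 0 to 0.728 CPM in the other 23. Gfap, the astrocyte filament, lay at 42.4 CPM there and at 1015 to 1626 CPM in the others. Values below rest on the other 23 cords unless stated, so that wild-type paclitaxel has 5 libraries and 2 females. Chrna7 itself lay at 9.38 to 15.9 CPM in 11 wild-type and 9.09 to 14.5 CPM in 12 knockout cords, overlapping ranges. Neurons also transcribe it, so whole cord does not check the loss from myeloid cells.

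All 9 genes were well covered, with at least 660 counts in every one of the 23 cords. Levels between genes are compared per kilobase of exon (RPKM, that is CPM over exon length), with coordinates on GRCm38 as in the deposited table. Slc2a1, the glucose transporter GLUT1 (chromosome 4, 119108711 to 119137983, plus strand), was highest at 31.9 ± 5.31 RPKM (SD, n = 23). Cldn5, the claudin of brain vessel tight junctions (chromosome 16, 18776847 to 18778262, plus strand), followed at 21.6 ± 5.12 RPKM. Mfsd2a, the lipid carrier that holds vesicle transport low (chromosome 4, 122946850 to 122961188, minus strand), reached 14.4 ± 2.10 RPKM. These 3 barrier genes stood above every general endothelial gene. The fourth, Ocln, which encodes the tight junction protein occludin (chromosome 13, 100496507 to 100552718, minus strand), lay at 3.11 ± 0.340 RPKM.

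Among the general genes, Flt1, the decoy-like VEGF receptor 1 (chromosome 5, 147561604 to 147726011, minus strand), led at 5.92 ± 1.17 RPKM. Pecam1, the adhesion molecule CD31 (chromosome 11, 106654217 to 106750628, minus strand), and Tek, the angiopoietin receptor TIE2 (chromosome 4, 94739289 to 94874976, plus strand), lay at 3.87 ± 0.748 and 3.82 ± 0.639 RPKM. Pecam1 exceeded Tek in 11 of 23 cords, so this pair has no order. Cdh5, the adherens junction protein VE-cadherin (chromosome 8, 104101625 to 104144511, plus strand), was at 3.07 ± 0.594 RPKM, and was exceeded by Ocln in 16 of 23 cords, a difference of means smaller than either SD. Kdr, the main signalling VEGF receptor (chromosome 5, 75932827 to 75978458, minus strand), was lowest at 1.59 ± 0.540 RPKM, below Cdh5 in all 23 cords. The other neighbours in this order kept it in 21 to 23 of 23 cords. Slc2a1 shared 105 exon bases with an antisense gene of 0.304 CPM, Gm12868, and unstranded counting cannot separate them there. The other 8 shared no exon base with another gene.

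Promoter sequence was available for 7 of the 9 genes from RefSeq on GRCm38.p6, and 4 are shown for the contrast of Cldn5 and Kdr, with the largest paclitaxel differences in knockout cords, Tek, called between the sexes, and Mfsd2a, with little difference. Each run is the 250 bases before the start site, 5′ to 3′ on the gene's strand. Capitals mark 6-letter motifs found on either strand: the ETS cores CCGGAA and CAGGAA, bound by the endothelial ETS family (seen in reverse as TTCCGG and TTCCTG), the TCF/LEF letters CTTTGA of the Wnt pathway, the GC box GGGCGG (in reverse CCGCCC), and the TATA letters TATAAA. The E-box CACGTG was also searched. Cldn5 lies at chr16:18776597-18776846 (plus), Kdr at chr5:75978456-75978705 (minus), Tek at chr4:94739039-94739288 (plus) and Mfsd2a at chr4:122961189-122961438 (minus).
Cldn5: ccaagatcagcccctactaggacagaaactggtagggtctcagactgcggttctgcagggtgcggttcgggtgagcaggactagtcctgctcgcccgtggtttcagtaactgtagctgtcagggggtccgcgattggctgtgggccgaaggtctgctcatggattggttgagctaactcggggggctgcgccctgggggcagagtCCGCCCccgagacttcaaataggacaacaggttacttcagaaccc
Kdr: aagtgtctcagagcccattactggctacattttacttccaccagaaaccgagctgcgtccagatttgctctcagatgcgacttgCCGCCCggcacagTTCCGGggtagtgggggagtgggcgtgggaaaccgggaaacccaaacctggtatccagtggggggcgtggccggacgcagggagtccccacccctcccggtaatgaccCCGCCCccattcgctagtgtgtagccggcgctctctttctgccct
Tek: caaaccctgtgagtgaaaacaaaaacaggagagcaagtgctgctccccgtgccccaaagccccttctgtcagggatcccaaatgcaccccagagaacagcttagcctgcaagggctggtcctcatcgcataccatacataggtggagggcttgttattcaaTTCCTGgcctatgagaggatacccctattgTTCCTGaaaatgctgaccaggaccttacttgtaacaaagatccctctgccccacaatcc
Mfsd2a: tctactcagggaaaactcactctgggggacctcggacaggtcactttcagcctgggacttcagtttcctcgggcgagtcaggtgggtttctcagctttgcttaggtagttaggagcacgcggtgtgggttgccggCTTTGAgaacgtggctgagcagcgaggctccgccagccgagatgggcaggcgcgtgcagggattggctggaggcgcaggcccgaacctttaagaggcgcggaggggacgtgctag
The CCGGAA core was in Kdr and in 1 of the Ocln entries, and in 12.03% of all 32851 promoters of the same length. CAGGAA was in Tek alone among the members (25.71% of all), CTTTGA in Mfsd2a alone (13.83%) and TATAAA in Flt1 alone (12.37%). GGGCGG was in 6 of the 8 member entries, those of Cldn5, Flt1, Kdr, Slc2a1 and both of Ocln, against 32.74% of all. No member entry held CACGTG (6.021% of all). A match describes letters and not a bound site.

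Cldn5 was higher with paclitaxel in both genotypes and both sexes. In wild-type cords, vehicle females held 29.3, 26.4 and 21.97 CPM and vehicle males 26.3, 28.5 and 27.4 CPM. The paclitaxel females held 33.9 and 28.6 CPM and the males 29.8, 45.3 and 34.8 CPM. Of these 5, 4 lay above the highest vehicle cord. In knockout cords, vehicle females held 30.2, 32.8 and 26.1 CPM and vehicle males 24.7, 17.3 and 16.8 CPM. With paclitaxel they held 40.8, 32.7 and 32.8 CPM in females and 38.6, 40.7 and 39.2 CPM in males. Of the 6 paclitaxel cords, 5 lay above the highest vehicle cord, and the 3 lowest vehicle values were those of males. The log2 fold change was 0.33 (SE 0.12) in wild-type and 0.64 (SE 0.12) in knockout.

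Ocln, the other tight junction gene, showed no such pattern. Wild-type vehicle cords held 14.3, 14.99 and 13.9 CPM in females and 16.4, 12.4 and 12.1 CPM in males, and paclitaxel cords 12.46 and 13.2 CPM in females and 13.97, 10.8 and 13.9 CPM in males. Knockout vehicle cords held 14.5, 11.8 and 14.5 CPM in females and 12.8, 13.2 and 9.92 CPM in males. With paclitaxel they held 13.4, 11.8 and 12.8 CPM in females and 14.3, 12.2 and 12.7 CPM in males. No paclitaxel cord of either genotype lay above the highest vehicle cord. The log2 fold changes were -0.14 (SE 0.09) in wild-type and 0.02 (SE 0.09) in knockout.

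Slc2a1 overlapped between treatments in both genotypes. Wild-type vehicle cords held 115, 126 and 115 CPM in females and 111, 106 and 98.8 CPM in males. With paclitaxel the 2 females lay below that range at 84.4 and 93.1 CPM, and the males at 136, 126 and 127 CPM, 2 of them above it. Knockout vehicle cords held 115, 98.7 and 119 CPM in females and 104, 114 and 82.0 CPM in males. Their paclitaxel counterparts held 167, 89.2 and 108 CPM in females and 101, 109 and 125 CPM in males, so that 2 of 6 exceeded every vehicle cord. Log2 fold changes were -0.07 (SE 0.13) in wild-type and 0.15 (SE 0.12) in knockout, the latter 0.002 without knockout female paclitaxel replicate 1.

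Mfsd2a had close values in all groups apart from 1 cord. Vehicle held 28.9, 33.2 and 33.05 CPM in wild-type females, 32.4, 32.4 and 28.2 CPM in wild-type males, 35.6, 27.01 and 36.8 CPM in knockout females and 30.9, 35.7 and 29.04 CPM in knockout males. Paclitaxel cords held 33.6 and 28.9 CPM in wild-type females, 35.3, 31.2 and 34.5 CPM in wild-type males and 31.6, 27.8 and 30.01 CPM in knockout males. Knockout paclitaxel females held 49.8, 28.9 and 30.03 CPM, the first of them the highest value of this gene. The log2 fold changes were 0.04 (SE 0.13) in wild-type and 0.02 (SE 0.12) in knockout, the latter -0.13 without that cord.

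**Figure D1:**
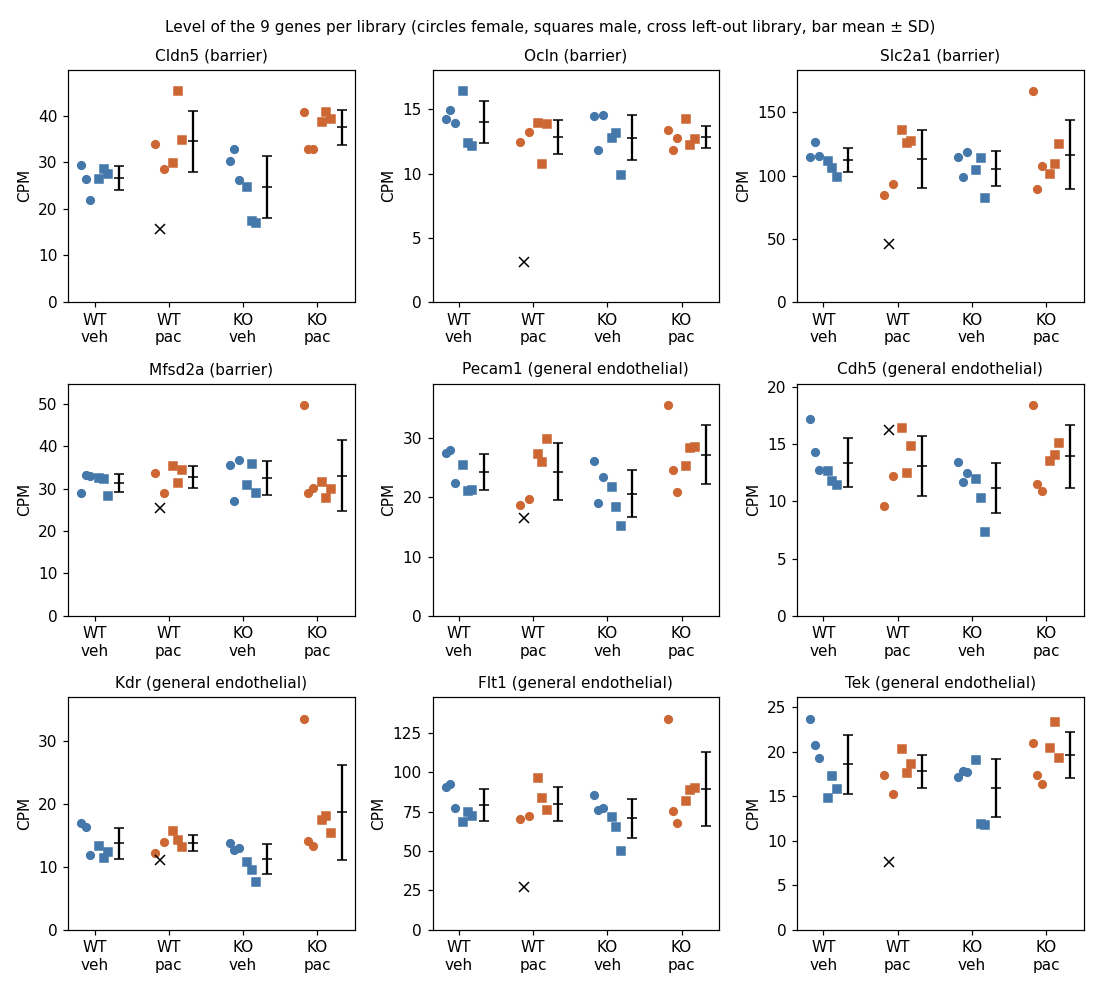
Level of each of the 9 genes in CPM (vertical axes from 0) in every library by genotype (WT wild-type, KO knockout) and treatment (veh vehicle, pac paclitaxel), with circles for females, squares for males, a cross for the ganglion-like library and bars for mean ± SD of the cords without it. Cldn5 in knockout cords lies at 32.7 to 40.8 CPM with paclitaxel and at 16.8 to 32.8 CPM with vehicle, whereas Ocln overlaps fully.

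Of the adhesion genes, Pecam1 in wild-type vehicle cords held 27.4, 28 and 22.4 CPM in females and 25.4, 21.1 and 21.3 CPM in males. Paclitaxel cords of this genotype split by sex, at 18.8 and 19.8 CPM in females and 27.3, 25.98 and 29.9 CPM in males. Knockout vehicle cords held 26.1, 19.02 and 23.5 CPM in females and 21.7, 18.3 and 15.1 CPM in males, against 35.7, 24.7 and 20.9 CPM and 25.3, 28.4 and 28.5 CPM with paclitaxel. Of the 6 knockout paclitaxel cords, 3 lay above the highest vehicle cord. Log2 fold changes were -0.08 (SE 0.13) in wild-type and 0.41 (SE 0.12) in knockout.

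Cdh5 overlapped between treatments as well. Wild-type vehicle cords held 17.2, 14.3 and 12.8 CPM in females and 12.6, 11.8 and 11.5 CPM in males, and paclitaxel cords 9.59 and 12.3 CPM in females and 16.5, 12.51 and 14.8 CPM in males. Knockout vehicle cords held 13.4, 11.7 and 12.48 CPM in females and 11.97, 10.3 and 7.30 CPM in males. Paclitaxel cords held 18.5, 11.5 and 10.9 CPM in females and 13.6, 14.1 and 15.2 CPM in males, 4 of 6 above every knockout vehicle cord. The log2 fold change was -0.09 (SE 0.14) in wild-type and 0.33 (SE 0.14) in knockout, and the knockout value was 0.19 without female paclitaxel replicate 1.

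Of the growth factor receptors, Kdr was the member with the largest difference in knockout cords and almost none in wild-type cords. Wild-type vehicle cords held 17, 16.4 and 11.9 CPM in females and 13.3, 11.4 and 12.3 CPM in males, and paclitaxel cords 12.2 and 13.9 CPM in females and 15.6, 14.2 and 13.2 CPM in males. In knockout, vehicle females held 13.7, 12.7 and 13.1 CPM and vehicle males 10.7, 9.46 and 7.56 CPM. Paclitaxel females held 33.6, 14.1 and 13.3 CPM and paclitaxel males 17.5, 18.0 and 15.4 CPM. Of these 6, 5 exceeded every knockout vehicle cord, and female replicate 1 stood far above all other cords. Log2 fold changes were -0.01 (SE 0.20) in wild-type and 0.76 (SE 0.19) in knockout, the latter 0.47 without that cord.

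Flt1 showed the same high cord. Wild-type vehicle cords held 91.0, 92.5 and 77.4 CPM in females and 68.6, 75.0 and 72.0 CPM in males, and paclitaxel cords 70.5 and 72.0 CPM in females and 96.5, 83.8 and 76.0 CPM in males. Knockout vehicle cords held 85.8, 76.1 and 77.3 CPM in females and 71.4, 65.0 and 50.0 CPM in males. Paclitaxel cords held 134, 75.2 and 67.8 CPM in females and 81.6, 88.7 and 89.9 CPM in males. Of these, 3 of 6 lay above the knockout vehicle range. Log2 fold changes were -0.03 (SE 0.15) in wild-type and 0.35 (SE 0.14) in knockout, the latter 0.17 without the highest cord.

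In wild-type cords Tek differed by sex in the direction of its response. Wild-type vehicle cords held 23.8, 20.8 and 19.3 CPM in females and 14.8, 17.2 and 15.8 CPM in males. The paclitaxel cords held 17.4 and 15.2 CPM in females and 20.3, 17.6 and 18.7 CPM in males, so that females lay below and males above the vehicle cords of their own sex. In knockout, vehicle females held 17.2, 17.8 and 17.8 CPM and vehicle males 19.1, 11.9 and 11.8 CPM. Paclitaxel females held 20.9, 17.4 and 16.4 CPM and paclitaxel males 20.5, 23.4 and 19.4 CPM, and each of these males lay above each vehicle male. The log2 fold change was -0.08 (SE 0.11) in wild-type and 0.31 (SE 0.11) in knockout.

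Across the 9 genes, the paclitaxel difference in knockout cords was positive for 9 of 9, with a median log2 fold change of 0.33, where the median of all 25372 tested genes was 0.002. The 5 general genes had a median of 0.35 and the 4 barrier genes 0.085, with Cldn5 at 0.64 and the other 3 at 0.02 to 0.15. In wild-type cords 2 of 9 were positive, Cldn5 and Mfsd2a, and the median was -0.073 (all tested genes 0.006). With the ganglion-like library included, the wild-type median was -0.103, with Ocln at -0.346 and Cldn5 at 0.209. In knockout cords none of the 9 was called by edgeR (Benjamini-Hochberg adjusted p under 0.05 over all genes), against a background of 0.0236% of all tested genes, and 6 were under an unadjusted p of 0.05 (background 11.3%). Limma voom called 0 (0.0197%) and DESeq2 2, Cldn5 and Kdr (0.497%). In wild-type cords edgeR called 0 of 9 (0.0%), with 1 under an unadjusted p of 0.05 (7.97%), and limma voom (0.0%) and DESeq2 (0.0158%) called 0. No member separated the treatments completely. In knockout, 0.169% of tested genes were higher and 0.256% lower in every paclitaxel cord than in every vehicle cord, and in wild-type 0.233% and 0.252%. The comparisons chose the genes, so nothing is read from these counts.

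**Figure D2:**
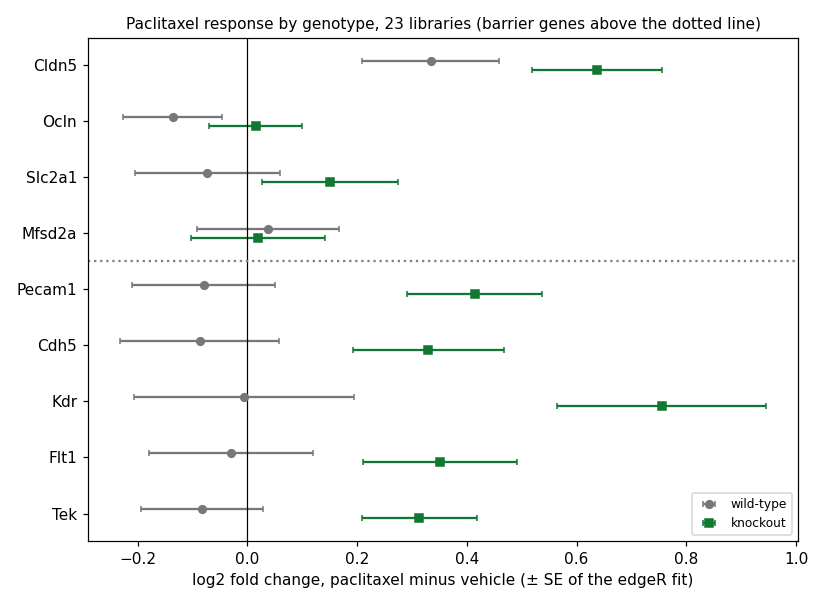
Log2 fold change of paclitaxel against vehicle (horizontal axis, ± SE of the edgeR fit) for the 9 genes in wild-type (grey circles) and knockout cords (green squares), barrier genes above the dotted line. Cldn5 is above 0 in both genotypes (0.33 and 0.64), and the 5 general genes lie between -0.09 and -0.01 in wild-type and between 0.31 and 0.76 in knockout.

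The knockout response exceeded the wild-type response in 8 of 9 genes, by a median log2 difference of 0.38, which was 0.25 without knockout female paclitaxel replicate 1. Kdr differed by 0.76 (SE 0.28), Pecam1 by 0.49 (SE 0.18) and Mfsd2a by -0.02 (SE 0.18). Without that cord the knockout response of Kdr was 0.47 in place of 0.76, and that of Pecam1 0.29 in place of 0.41. Under vehicle, knockout cords were lower than wild-type in 8 of 9 genes, with a median log2 difference of -0.18, which was -0.11 without knockout male vehicle replicate 3. For the difference of the responses, edgeR called 0 of 9 (background 0.0%), with 3 under an unadjusted p of 0.05 (8.41%) and 0 by DESeq2 (0.0%) or limma voom (0.0%). Under vehicle it called 0 of 9 (0.00788%), with 1 under an unadjusted p of 0.05 (5.2%) and 0 by DESeq2 (0.0158%) or limma voom (0.00394%). These comparisons use cords that also enter the responses above.

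A pair of knockout vehicle males and 1 knockout paclitaxel female stood apart across the vascular genes. Each gene was set against its own median over the 23 cords as a log2 ratio. In knockout female paclitaxel replicate 1 the median ratio was 0.56 over the 9 genes, and all 9 lay above their medians. In knockout male vehicle replicate 3 it was -0.60 with 0 of 9 above, and in replicate 2 it was -0.28 with 2 of 9 above. The blood cell list, led by the globins Hbb-bs, Hbb-bt and Hba-a1, had a median log2 ratio of 2.16 in that paclitaxel female, with its summed level over knockout paclitaxel cords at 159 to 935 CPM and over knockout vehicle cords at 151 to 321 CPM. The same list reached 2.31 in wild-type male paclitaxel replicate 3, where the median ratio of the 9 genes was 0.12, and its part in the responses was not tested. Without the paclitaxel female, the knockout median of the 9 genes was 0.19 in place of 0.33, and without knockout male vehicle replicate 1 it was 0.41.

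Cldn5 was also set against the general endothelial genes within each library. Its log2 level minus the mean log2 level of the 5 general genes was 0.261 ± 0.207 in vehicle (n = 12) and 0.56 ± 0.24 in paclitaxel cords (SD, n = 11), with overlapping ranges of 0.002 to 0.662 and 0.152 to 0.962. This offset went from 0.213 to 0.585 in wild-type and from 0.309 to 0.54 in knockout. The other barrier genes did not share it in knockout cords, where Ocln went from -0.605 to -0.999, Slc2a1 from 2.439 to 2.154 and Mfsd2a from 0.743 to 0.333. Against the general genes, these 3 thus had lower means in knockout paclitaxel than in knockout vehicle cords, with overlapping ranges. Slc2a1 ran from 2.003 to 2.414 with paclitaxel and from 2.251 to 2.752 with vehicle. Mfsd2a ran from 0.031 to 0.571 and from 0.381 to 1.08, and Ocln from -1.433 to -0.665 and from -0.808 to -0.357. The offsets contain the knockout responses of the general genes, among them Kdr, so they are descriptions too. In wild-type cords Slc2a1 stood at 2.289 with vehicle and 2.296 with paclitaxel, Mfsd2a at 0.452 and 0.525, and Ocln at -0.714 and -0.825.

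The comparisons that did not choose the genes could be tested, with edgeR over all 25372 genes. Knockout against wild-type over all 23 cords gave no call among the 9, with 0.0118% of all genes called. There were 0 at an unadjusted p under 0.05 (background 3.36%), and 0 by DESeq2 (0.0197%) or limma voom (0.00788%). Log2 differences ran from -0.07 for Ocln (SE 0.06) to 0.06 for Kdr (SE 0.14), and the median was 0. Males against females gave no call either, with a background of 0.918%. Again 0 lay under an unadjusted p of 0.05 (13.2%), and DESeq2 (2.3%) and limma voom (0.855%) called 0. Kdr was furthest from 0, at a log2 difference of -0.23 in males (SE 0.14, edgeR adjusted p = 0.502).

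The response to paclitaxel differed between the sexes in Tek alone by the adjusted test. Of the 9 genes, 8 had a larger response in males than in females, with a median log2 difference of 0.42, while the median of all tested genes was -0.005. Tek lay at 19.4 ± 2.49 CPM in vehicle females (n = 6) and 17.5 ± 2.14 CPM in paclitaxel females (n = 5), against 15.1 ± 2.92 and 19.96 ± 2.00 CPM in males (n = 6 each). Its male response exceeded the female one by a log2 difference of 0.59 (SE 0.15, adjusted p = 0.0365 by edgeR). The background in this comparison was high, with 4.96% of all genes called by edgeR and 2.72% called in the direction of Tek, so 1 call among 9 is read against that share. By DESeq2, 3 of the 9 were called (background 9.36%) and by limma voom 1 (4.74%). At an unadjusted p under 0.05 there were 5 of 9, all larger in males, against 10.5% of all genes in that direction.

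Pecam1, at a log2 difference of 0.55 (SE 0.18, edgeR adjusted p = 0.0893), and Cdh5, at 0.59 (SE 0.20, edgeR adjusted p = 0.0978), did not pass. For Pecam1, paclitaxel males lay at 25.3 to 29.9 CPM and vehicle males at 15.1 to 25.4 CPM. Cldn5 differed by 0.47 (SE 0.17, edgeR adjusted p = 0.126), and Slc2a1, Flt1, Kdr and Ocln by 0.40, 0.42, 0.36 and 0.18 with edgeR adjusted p of 0.230 to 0.523. Mfsd2a had a difference of -0.02 (SE 0.18, edgeR adjusted p = 0.969). The call for Tek held without knockout male paclitaxel replicate 1, wild-type male paclitaxel replicate 2 or 3, knockout female vehicle replicate 2, wild-type female vehicle replicate 3, knockout female paclitaxel replicate 1, knockout male vehicle replicate 1 or wild-type male vehicle replicate 2. Leaving out any 1 of the 15 other cords ended it, with edgeR adjusted p up to 0.102, and with all 24 libraries it was 0.718 at an edgeR adjusted p of 0.171. Leaving out knockout male vehicle replicate 1 gave 4 calls among the 9 genes, with 2419 genes called in all. Leaving out knockout female paclitaxel replicate 1 gave 6 calls, adding Slc2a1, Pecam1, Cdh5, Kdr and Flt1 at edgeR adjusted p of 0.0107 to 0.0188. Over the fits without 1 cord, the genes called in all ran from 248 to 2419, so nothing is read from these member counts.

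**Figure D3:**
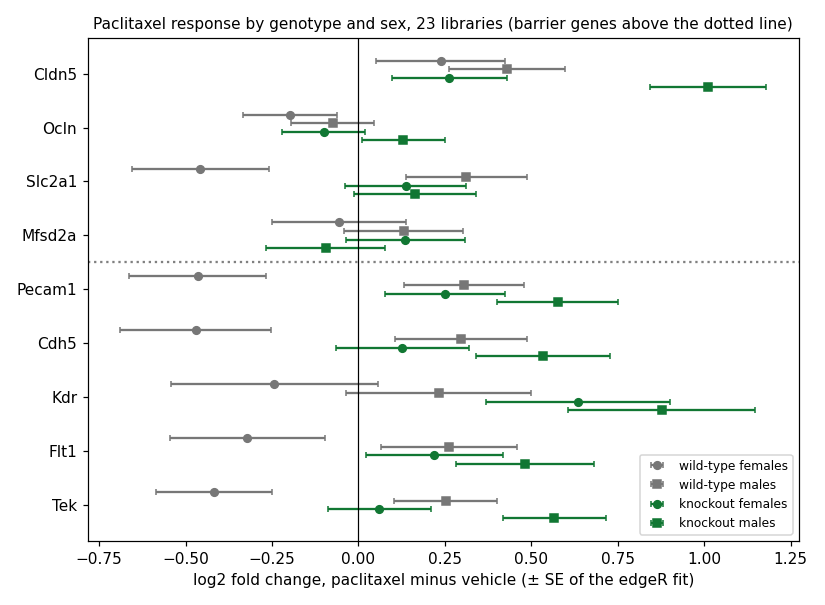
Log2 fold change of paclitaxel against vehicle (horizontal axis, ± SE of the edgeR fit) for the 9 genes in wild-type (grey) and knockout (green), females as circles and males as squares, barrier genes above the dotted line. Wild-type females lie below 0 for all genes except Cldn5 (0.24), and Cldn5 in knockout males is highest at 1.01.

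By genotype and sex, the paclitaxel difference of the 9 genes had a median log2 value of -0.32 in wild-type females, 0.26 in wild-type males, 0.14 in knockout females and 0.53 in knockout males. Cldn5 was the gene that was positive in all 4, at 0.24 (SE 0.19), 0.43 (SE 0.17), 0.26 (SE 0.17) and 1.01 (SE 0.17) in that order. Pecam1 ran from -0.47 (SE 0.20) in wild-type females to 0.58 (SE 0.17) in knockout males, and Tek from -0.42 (SE 0.17) to 0.57 (SE 0.15). Mfsd2a stayed between -0.10 and 0.13 in all 4.

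Neither this difference between the sexes nor the paclitaxel difference within a sex can be told apart from the library numbers of the labels. The libraries named 1 to 12 are the vehicle females and the paclitaxel males, and those named 13 to 24 the vehicle males and the paclitaxel females, in both genotypes. The labels do not call these numbers a batch. The 5 general genes had a median log2 ratio to their 23-cord median of 0.098 in libraries 1 to 12 (range -0.067 to 0.351, n = 12) and -0.092 in libraries 13 to 24 (range -0.705 to 0.56, n = 11). Over all 9 genes the medians were 0.117 and -0.079. Each genotype's paclitaxel difference can be taken within either set of libraries, at the cost of setting one sex against the other. In knockout cords Cldn5 was then at 0.41 (SE 0.17) within libraries 1 to 12 and 0.87 (SE 0.17) within 13 to 24, and Kdr at 0.36 (SE 0.27) and 1.15 (SE 0.27). In wild-type cords Cldn5 was at 0.49 (SE 0.17) and 0.18 (SE 0.19). The direction of Cldn5 was the same within each set in both genotypes, and that of the 5 general genes in knockout cords was positive within each set, at 0.11 to 0.36 and 0.37 to 1.15. The values within the sets average to the difference of that genotype given above, for which the genes were chosen. They are therefore no separate check of it.

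**Figure D4:**
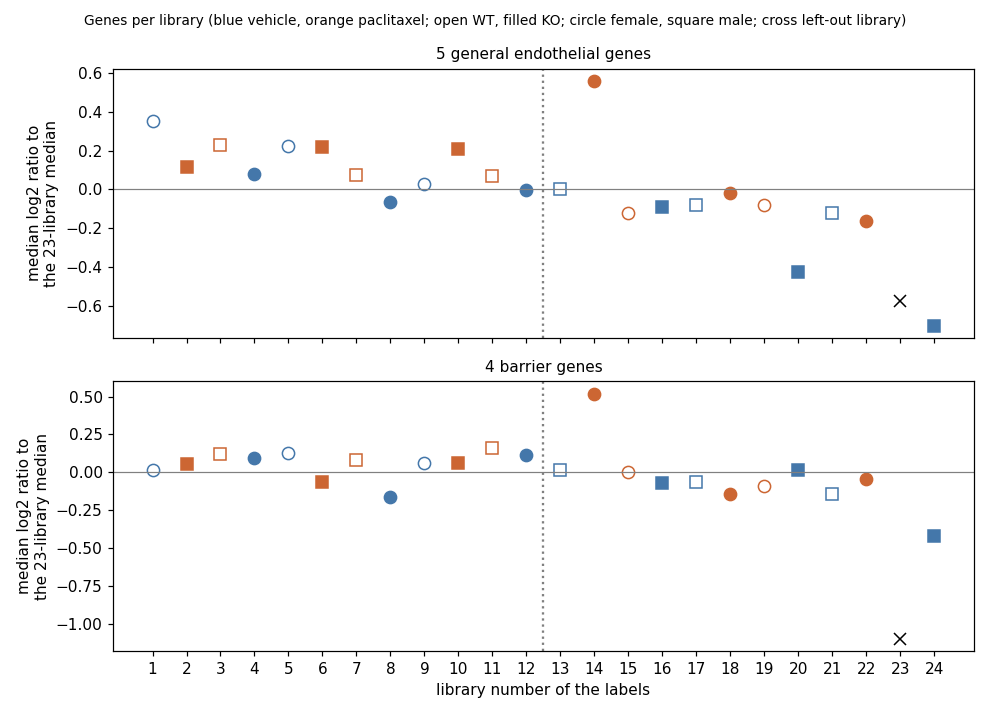
Median log2 ratio of the 5 general (upper panel) and the 4 barrier genes (lower panel) to their 23-cord medians (vertical axes) by the library number of the labels (horizontal axis), with colours for treatment, open symbols for wild-type, filled for knockout, circles for females, squares for males and a cross for the ganglion-like library. Libraries 1 to 12 of the general genes lie between -0.067 and 0.351, and library 14, knockout female paclitaxel replicate 1, is highest at 0.56.

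The wider sets of barrier and vessel genes were chosen with earlier results of these data in view, and are described by counts. Of 18 other endothelial genes, 17 were higher with paclitaxel in knockout cords, with a median log2 fold change of 0.234, and 7 of 18 in wild-type cords (median -0.017). Tie1, the partner receptor of Tek, lay at 0.17 in knockout and -0.01 in wild-type, and Erg, an ETS factor of endothelial cells, at 0.24 and 0.08. Fli1, another ETS factor, lay at 0.02 and -0.02. Pericyte genes went the same way, with 9 of 10 higher in knockout (median 0.204) and 1 of 10 in wild-type (median -0.06). Pdgfrb, the growth factor receptor of pericytes, lay at 0.27 and 0.05, and Kcnj8, a potassium channel subunit, at 0.30 and -0.15. None of these genes was called in either genotype, against 0.0236% of all genes by edgeR, 0.497% by DESeq2 and 0.0197% by limma voom in knockout. In knockout, 10 of the 18 endothelial and 4 of the 10 pericyte genes lay under an unadjusted p of 0.05 (11.3% of all genes), and in wild-type 0 (7.97%). The lists were chosen with these responses known and their genes share the same cords, so nothing is read from these counts.

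Other genes of the barrier itself had smaller values. Of 12 junction genes, 9 were higher with paclitaxel in knockout cords (median 0.111) and 3 in wild-type cords (median -0.062), among them the scaffold Tjp1 at 0.03 and -0.08. Of 14 transporters, 10 were higher in knockout (median 0.097) and 2 in wild-type (median -0.071). The drug efflux pump Abcb1a lay at 0.19 and -0.14, the efflux pump Abcg2 at -0.09 and -0.01, and the thyroid hormone carrier Slco1c1 at 0.12 and -0.08. Of 15 Wnt pathway genes, 11 were higher in knockout (median 0.067) and 6 in wild-type (median -0.045). Their ligands Wnt7a, Wnt7b and Ndp lay at 0.12, -0.11 and -0.15 in knockout.

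Ligands of the growth factor receptors had values of both signs in knockout cords. Of 15 genes of the VEGF and angiopoietin pathways, 12 were higher with paclitaxel in knockout cords (median 0.104) and 5 in wild-type cords (median -0.031). Vegfa, the main ligand of Kdr, lay at 0.25 in knockout and 0.13 in wild-type, Vegfb at -0.05 and 0.10, and Vegfc at 0.24 and -0.02. Of 10 genes of leaky or activated endothelium, 6 were higher in each genotype (medians 0.068 and 0.031). Plvap, which marks fenestrated vessels without a barrier, lay at 0.10 and 0.22, and the leukocyte adhesion genes Vcam1 at -0.08 and 0.06 and Icam1 at -0.29 and 0.28. Of the junction, transporter, Wnt, growth factor and leak genes, edgeR, DESeq2 and limma voom called none in either genotype. Under an unadjusted p of 0.05 in either direction in knockout were 5 of 12 junction genes, 6 of 14 transporters, 5 of 15 Wnt pathway genes, 5 of 15 growth factor genes and 1 of 10 leak genes, against 11.3% of all genes. Of the 5 Wnt pathway genes, 2 were higher and 3 lower. In wild-type the counts were 4, 1, 1, 0 and 1 in that order, against 7.97%. Nothing is read from these counts either, for the reason given for the endothelial and pericyte lists.

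A pair of junction genes named in earlier results of these data had lower means with paclitaxel, Usp53 in both genotypes and Jcad in wild-type cords. Usp53, which encodes a tight junction protein, lay at 78.7 ± 7.04 CPM in knockout vehicle and 64.8 ± 4.53 CPM in knockout paclitaxel cords (SD, n = 6 each), and at 76.4 ± 3.59 (n = 6) and 67.8 ± 7.48 CPM (n = 5) in wild-type. Jcad, an endothelial junction gene, lay at 80.4 ± 6.08 and 68.1 ± 5.41 CPM in wild-type vehicle and paclitaxel cords, and at 72.6 ± 6.81 and 72.6 ± 3.29 CPM in knockout. These genes were chosen for these differences, so no test is given.

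In the comparison of the sexes' responses, which did not choose the members, several other barrier genes were called by edgeR, with the male response larger. Among them were 5 of 14 transporters (Abcb1a, Slco1c1, Slc7a5, Slc3a2 and Slc22a8), 5 of 15 Wnt pathway genes (Lrp5, Axin2, Apcdd1, Foxf2 and Foxq1) and 1 of 18 other endothelial genes (Tie1). These are named because they were called, with their values seen. Abcb1a had a log2 difference of 0.67 (SE 0.14, edgeR adjusted p = 0.0203), Slco1c1 of 0.28 (SE 0.07, edgeR adjusted p = 0.0345) and Tie1 of 0.30 (SE 0.09, edgeR adjusted p = 0.0435). The background is the 4.96% given above, and the other lists had 0 to 4 calls each, with 4 of 8 neuronal genes the most. The library numbers lie on the same split, and with all 24 libraries edgeR called 0 genes in this comparison.

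Lists of other cord cells gave values near those of all genes in knockout cords. With paclitaxel, the median log2 fold change was 0.051 for 8 astrocyte genes, 0.073 for 8 microglial genes, 0.028 for 8 oligodendrocyte genes and 0.044 for 8 neuronal genes. The summed level of the astrocyte list was 7436 to 8557 CPM over all 23 cords. The 9 blood cell genes had a median of 0.725 in knockout (8 of 9 higher) and 0.083 in wild-type (5 of 9 higher). Their summed levels overlapped, at 151 to 321 CPM in knockout vehicle and 159 to 935 CPM in knockout paclitaxel cords, and their part in the vessel gene values was not tested.

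The general endothelial genes varied together from cord to cord. After the group means were taken off, Pearson r over the 23 cords was 0.539 to 0.916 among their 10 pairs (median 0.807), highest for Flt1 and Kdr. The points share library and depth, and these values are descriptions. Knockout female paclitaxel replicate 1 was the highest of the 23 cords in Slc2a1, Mfsd2a, Pecam1, Cdh5, Kdr and Flt1. How far the r values and the ranking below rest on that cord was not tested. Slc2a1 and Mfsd2a followed the general genes, with median r of 0.771 and 0.65, and each other at 0.817. With Tek, however, their r was only 0.29 and 0.203. Cldn5 followed the general genes with a median r of 0.462. It had r of -0.182 with Ocln, 0.2 with Slc2a1 and 0.021 with Mfsd2a. The genes most like the mean of the members over the 23 cords, of 15863 with a mean of at least 1 CPM, were Esam at r = 0.92, Cd34 at 0.92, Eng at 0.915, Adamts1 at 0.913, Lrp5 at 0.909, Stom at 0.908, Cd93 at 0.906 and Ldha at 0.901. Esam, Cd34, Eng and Cd93 encode surface proteins of endothelial cells, and Ldha a lactate dehydrogenase of glycolysis.

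In the ganglion-like library, the 4 barrier genes were all below every cord. Ocln lay at 3.07 CPM, 23.3% of the median of the 23 cords, Slc2a1 at 45.8 CPM (41.2%), Cldn5 at 15.7 CPM (52.6%) and Mfsd2a at 25.4 CPM (80.4%). Flt1 at 27.02 CPM (35.5%) and Tek at 7.65 CPM (43.0%) were also below every cord. Pecam1 at 16.5 CPM (66.8%), Kdr at 11.1 CPM (83.3%) and Cdh5 at 16.2 CPM (129.7%) lay within the range of the cords. The median log2 ratio was -1.10 for the 4 barrier genes and -0.58 for the 5 general genes. The wider lists of junction genes and transporters did not show that order. Medians were -0.27 for 12 junction genes, -0.474 for 14 transporters and -0.506 for 18 other endothelial genes. The 15 Wnt pathway genes had a lower median of -0.765, with 9 of them below every cord. Of the junction genes and of the transporters, 3 each lay above every cord. Below every cord lay 6 of the 12 junction genes, 7 of the 14 transporters and 9 of the 18 other endothelial genes. All 8 microglial and all 8 oligodendrocyte genes lay there too, but only 1 of 7 Schwann cell genes and 0 of 9 blood cell genes. The share of all genes below every cord was not taken, so no trait particular to the members is read from these counts. All 8 genes of ganglion neurons lay above every cord and all 8 astrocyte genes below. A single library has no replicate, so these values carry no test.

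**Figure D5:**
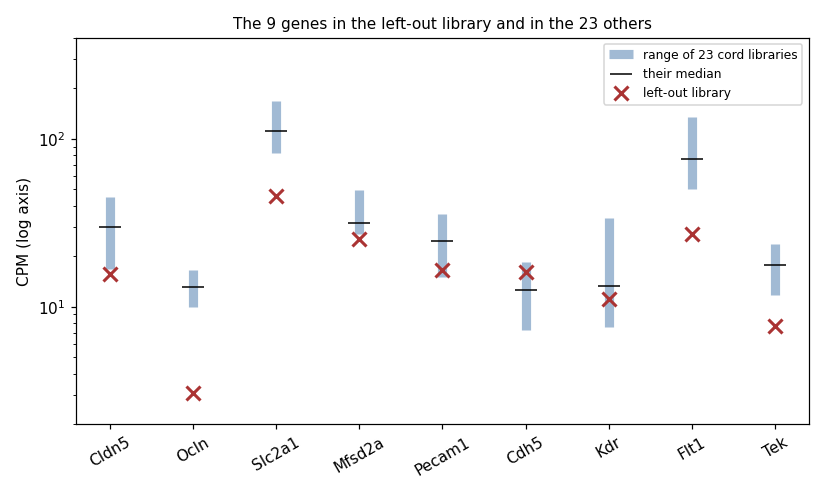
Level of the 9 genes in CPM (vertical log axis) in the ganglion-like library (red crosses), with the range of the 23 cords as bars and their median as a line. The crosses of the 4 barrier genes, Flt1 and Tek lie below the bars, and those of Pecam1, Kdr and Cdh5 within them.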

How the data were processed

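Whole-number counts per gene symbol were deposited by the authors as 1 table of 24 libraries without normalization. Per the submitters' processing notes, STAR aligned the reads and featureCounts 1.6.2 counted them. For STAR, a version was not given in the sources used here. Counting ran over exons summed by gene name on the GRCm38 annotation, per the file headers, which set no option for strand or read pairs.

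The main test was that of edgeR 4.0.16, run in R 4.3.3: filterByExpr over the 8 groups, TMM factors, and robust quasi-likelihood models of the 8 group means over 23 libraries. A gene was called at a Benjamini-Hochberg adjusted p under 0.05 over all 25372 tested genes. DESeq2 1.42.0 and limma 3.58.1 (voom) were alternatives. The SE of a log2 fold change was its size over the square root of the F statistic. Levels are CPM scaled by library totals only (no TMM), and RPKM were computed from the deposited exon lengths. Libraries come from separate mice.

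The members, the lists and the rule for named genes were chosen with earlier results of these data known. The rule takes each member in every library, the first 3 genes of each of 16 lists where a list is described, Jcad, Usp53 and the 8 genes most like the members. Genes called in the comparison of the sexes' responses are named beside these after their values were seen. An item withheld for evaluation is not reported here. Values within library numbers were added after seeing the data. On simulated counts of 25372 genes for the paclitaxel response in knockout cords, the test recovered 92 of 100 genes changed 1.5-fold and 98 of 100 changed 2-fold, with 15 false calls. Each simulated gene varied on its own, and genes of low level were not among those changed. The real genes vary together from cord to cord, so these shares check the code and are not the power in these cords.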

Additional observations from a re-analysis of the deposited data

Results flagged for a closer look

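The responses and levels of the 9 genes were searched for single cords far from the rest of their genotype and treatment group, over 36 combinations of gene and group, and 3 stood out. Chance alone marks about 1 in 20 groups taken singly. The 36 combinations share cords and genes that vary together, so this rate does not say how rare the 3 are. All 3 were knockout female paclitaxel replicate 1 among the 6 knockout paclitaxel cords. Its gap to the next cord took up most of the range of the group in each case. Mfsd2a, the lipid carrier, lay at 49.8 CPM there and at 27.8 to 31.6 CPM in the other 5. Kdr, the VEGF receptor, lay at 33.6 CPM against 13.3 to 18.0 CPM. Flt1 lay at 134 CPM against 67.8 to 89.9 CPM. The blood cell list of that cord had a median log2 ratio of 2.16 to its 23-cord median, and its part in these values was not tested.

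Tek, the angiopoietin receptor, had a response to paclitaxel that differed between the sexes by the test of the interaction itself, at 0.59 on the log2 scale (male minus female, edgeR adjusted p = 0.0365). The sexes' responses cannot be told apart from library numbers 1 to 12 against 13 to 24.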

How the results depend on the processing

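The median log2 fold change of the 9 genes moved by less than the SD between cords (0.192) in all 216 comparisons with an alternative. That SD is of single cords and is a wide margin for a difference of group means. Over the fits without 1 cord, the median still ran from 0.191 to 0.41 for paclitaxel in knockout. For the difference of the sexes' responses it ran from 0.352 to 0.605. Counts of calls moved as well. With no filter on low counts, the calls by edgeR were 470 genes and 7 members for paclitaxel in knockout, 254 and 1 in wild-type, 366 and 7 for the difference between these, 111 and 5 for knockout against wild-type under vehicle, 99 genes for it over all animals, 749 and 2 for sex, and 2181 and 7 for the difference of the sexes' responses. DESeq2 gave 126 genes and 2 members, 4, 0, 4, 5 and 583 genes, and 2376 genes and 3 members in that order. Limma voom gave 1 gene for knockout under vehicle. With all 24 libraries there were 0 genes in knockout, 1 for knockout under vehicle, 28 for sex and 0 genes and 0 members for the sexes' responses. Knockout cords fitted alone gave 3 genes. Within library numbers 1 to 12 and 13 to 24 the genes called were 14 and 21 in knockout and 775 and 15 in wild-type. The cause was not tested.

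A replicate block changed the calls for the sexes' responses to 1891 genes and 3 members (Pecam1, Cdh5 and Tek). Over 77 pairs of cords from different groups with the same replicate number, r was -0.0592 to 0.078, none over 0.1. Over 154 such pairs with different numbers it was -0.0649 to 0.0824. With so few cords per group these r values cannot exclude that the replicate numbers pair the animals, and no conclusion on pairing is drawn.

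Leaving out 1 cord gave 0 to 332 genes and 0 to 2 members in knockout (0 genes without knockout male vehicle replicate 2, 332 and 2 without replicate 1), 0 to 4 genes in wild-type and 0 to 1 for the difference between these. It gave 1 to 3 genes for knockout under vehicle, 3 to 5 over all animals, 65 (without wild-type female paclitaxel replicate 1) to 324 for sex, and 248 to 2419 genes and 0 to 6 members for the sexes' responses. For Mfsd2a, the difference of the sexes' responses changed sign, from -0.02 to 0.01 with all 24 libraries, and it ran from -0.094 to 0.126 over the fits without 1 cord. Each member had at least 660 counts in every cord, and groups of 2 or 3 mice limit the precision by genotype and sex.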
